A study of Homo sapiens with 18 samples.

Results

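Oxidative phosphorylation subunit genes were taken from the gene table by symbol, as those named NDUFA, NDUFB, NDUFC, NDUFS or NDUFV with a number, SDHA to SDHD, UQCR, CYC1, COX4 to COX8 and ATP5. The rule found 85 of 14079 gene symbols, and 81 of the 85 had enough tags to be tested among 10031 genes. Of the 85, 80 encode a subunit of respiratory complexes I to IV or of ATP synthase, or a protein bound to it. The other 5 are the pseudogenes ATP5PDP4, COX6CP1 and UQCRFS1P1, the divergent transcript NDUFA6-DT and the readthrough gene NDUFC2-KCTD14. Transcription starts had been counted by cap analysis of gene expression (CAGE), in which each tag marks the capped 5′ end of an RNA, so that levels need no correction for length. Total RNA came from the acute myeloid leukaemia lines AML3 and AML2, called OCI-AML3 and OCI-AML2 in the tables, with JQ1, OTX015 or DMSO vehicle and 3 libraries in each of the 6 groups. As background, OCI-AML3 carries a mutated NPM1 gene and OCI-AML2 does not. The labels give no genotype, dose or treatment time. Each line stands for a single leukaemia, and the labels do not say whether libraries of a group came from separate cultures, so p-values measure the spread between these libraries, which may be technical.

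In oxidative phosphorylation, complexes I and II pass electrons from NADH and succinate to coenzyme Q, complex III passes them on to cytochrome c, and complex IV reduces oxygen. Complexes I, III and IV pump protons across the inner mitochondrial membrane, and ATP synthase uses the gradient to make ATP. A few subunits are encoded in mitochondrial DNA, and the others, all those counted here, in the nucleus. Acute myeloid leukaemia cells are known to rely on this pathway for energy. JQ1 and OTX015 are related thienotriazolodiazepines that displace BET proteins, readers of acetylated histones, from chromatin.

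Promoter sequences are shown for the genes whose starts are described most closely below: ATP5MC1 had the lowest log2 fold changes of the subunit genes, NDUFA8 had a log2 fold change above 0 in AML3, NDUFA6 shares its start region with a transcript that moved the other way, and the start clusters of SDHB had different log2 fold changes. The last 3 were chosen after their values were seen. Each window runs from 250 bases before to 50 bases after the RefSeq start (RefSeq, GRCh38.p14), written 5′ to 3′ on the gene's strand. Capitals mark motif matches on either strand, with overlapping matches joined. The windows are chr17:48892537-48892836 on the plus strand for ATP5MC1, chr9:122159730-122160029 on the minus strand for NDUFA8, chr22:42090723-42091022 on the minus strand for NDUFA6 and chr1:17053983-17054282 on the minus strand for SDHB.
ATP5MC1: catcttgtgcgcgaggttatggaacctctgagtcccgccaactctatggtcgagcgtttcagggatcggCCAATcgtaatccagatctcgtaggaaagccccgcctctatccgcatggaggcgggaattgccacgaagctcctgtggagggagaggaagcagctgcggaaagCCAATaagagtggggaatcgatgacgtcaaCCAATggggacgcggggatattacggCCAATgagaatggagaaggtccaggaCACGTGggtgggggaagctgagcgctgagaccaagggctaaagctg
NDUFA8: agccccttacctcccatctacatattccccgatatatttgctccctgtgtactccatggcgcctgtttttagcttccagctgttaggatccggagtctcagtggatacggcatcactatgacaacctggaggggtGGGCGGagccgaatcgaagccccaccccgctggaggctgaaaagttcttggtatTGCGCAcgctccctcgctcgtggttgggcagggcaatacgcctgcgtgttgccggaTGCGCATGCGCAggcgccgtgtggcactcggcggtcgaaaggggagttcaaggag
NDUFA6: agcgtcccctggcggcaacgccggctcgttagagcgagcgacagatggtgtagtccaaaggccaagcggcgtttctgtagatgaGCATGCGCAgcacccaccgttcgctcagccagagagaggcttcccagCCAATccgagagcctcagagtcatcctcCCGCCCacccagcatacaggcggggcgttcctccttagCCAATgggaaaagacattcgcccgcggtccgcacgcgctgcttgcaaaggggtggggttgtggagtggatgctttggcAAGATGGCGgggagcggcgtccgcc
SDHB: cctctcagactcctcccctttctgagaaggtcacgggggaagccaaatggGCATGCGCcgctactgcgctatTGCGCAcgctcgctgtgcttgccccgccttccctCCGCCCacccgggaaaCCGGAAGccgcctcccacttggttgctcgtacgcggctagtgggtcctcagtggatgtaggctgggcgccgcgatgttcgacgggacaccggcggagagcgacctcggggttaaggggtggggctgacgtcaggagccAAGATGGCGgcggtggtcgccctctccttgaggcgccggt
The ATP5MC1 window held 4 copies of CCAAT and the E box CACGTG. NDUFA8 held GCGCATGC, the core of the site of nuclear respiratory factor 1 (NRF1), in both orientations over its start, with 3 copies of its shorter site TGCGCA, 2 of which overlap the core. NDUFA6 and SDHB each held AAGATGGCG, the core of a YY1 site, just after the start. Both also held GCGCATGC and TGCGCA, upstream of the start.

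RefSeq windows were found for 65 of the 85 genes, 78 windows in all. They are not independent, since some genes have several windows and those of NDUFA6 and NDUFA6-DT share 260 bases. GCGCATGC was in 20.5% of them, against 3.05% of the 35116 windows of all genes, and TGCGCA in 28.2% against 8.24%. The YY1 core was in 14.1% against 1.75%, and CCGGAAG, the core of the ETS site that GABP binds, in 26.9% against 10.3%. The Sp1 GC box GGGCGG was in 64.1% against 45.0%, CACGTG in 8.97% against 7.26%, and CCAAT in 33.3% against 34.6%. NRF1, GABP and YY1 are known activators of nuclear respiratory genes. Medians were also taken over the tested genes with and without a motif. In AML3 with JQ1 the median log2 fold change was -0.94 for the 15 tested genes with GCGCATGC and -0.98 for the 50 without, and with OTX015 -1.21 and -1.17. In AML2 those medians were -0.90 with GCGCATGC and -0.75 without it under JQ1, and -1.05 and -0.88 under OTX015. In AML2 the 23 tested genes with CCAAT had a median of -0.51 with JQ1 and the 42 without it -0.87. With OTX015 in AML2 the medians were -0.60 with CCAAT and -0.99 without. In AML3 they were -0.97 with CCAAT and -1.02 without it under JQ1, and -1.16 and -1.19 under OTX015. These are descriptions of letters in the window and were not tested. The windows of all genes were not limited to genes with tags here, so a higher share is not shown to be particular to these genes.

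Depth ranged between 303883 and 2163106 gene tags. It averaged 580758 over the libraries numbered 3, 1194919 over those numbered 1 and 1264786 over those numbered 2. Depth also went with treatment: at each number, both drug libraries of a line were shallower than its vehicle library. In AML3 it was 378794 to 1024704 tags with JQ1, 303883 to 800633 with OTX015 and 822070 to 1864643 with vehicle. In AML2 it was 570101 to 1290954, 452667 to 1215251 and 957036 to 2163106. The drug-treated AML3 libraries numbered 3 stood apart from the others of their groups. They had the highest TMM factors of all libraries, 1.49 with JQ1 and 1.55 with OTX015. Counts are therefore also given without both of them, an alternative chosen after seeing the data. Of the myeloid markers PTPRC, CD33, SPI1, LYZ, CSF3R and ANPEP, summed levels were 166 to 317 CPM with JQ1, 144 to 259 CPM with OTX015 and 593 to 819 CPM with vehicle in AML3. In AML2 they were 596 to 616 CPM with JQ1, 415 to 584 CPM with OTX015 and 651 to 1296 CPM with vehicle. In each AML2 group 1 of these 6 markers held no tags. The sums do not show which markers moved. MPO was not analysed here, and the markers set for T, erythroid and epithelial cells were not analysed here. The part of depth and of the lower summed marker levels in the results below was not tested. A gene is said to rise or fall where edgeR's quasi-likelihood test gave an adjusted p under 0.05 over all genes. Levels are CPM (tag counts relative to library size, scaled by TMM), and changes are log2 fold changes ± SE, with JQ1 given before OTX015 where a pair of values stands together.

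In each drug comparison more of the subunit genes fell than rose. In AML3, 62 of 81 fell with JQ1, where 24.1% of all genes fell, and 69 fell with OTX015, where 26.1% of all genes fell. In AML2, 40 fell with JQ1, where 17.4% of all genes fell, and 46 fell with OTX015, where 19.9% fell. In each of the 4 comparisons 1 of the 81 rose, NDUFA6-DT, where 26.8% (JQ1) and 28.8% (OTX015) of all genes rose in AML3 and 17.2% and 20.5% in AML2. The median log2 fold change over the 81 was -0.97 with JQ1 and -1.18 with OTX015 in AML3, beside 0.04 and 0.03 over all genes. In AML2 it was -0.76 with JQ1 and -0.90 with OTX015, beside 0 and 0.02 over all genes. All 3 drug libraries lay below all 3 vehicle libraries for 73 members with JQ1 and 76 with OTX015 in AML3, where this held for 28.6% and 30.1% of all genes. In AML2 it held for 59 members with JQ1 and 58 with OTX015, against 24.4% and 25.5% of all genes. Both drug comparisons of a line use the same vehicle libraries. The falls with JQ1 in AML3 and in AML2 share no library, and 38 genes were on both lists, 61.3% of the AML3 list and 95% of the AML2 list, beside 52.2% and 72.3% for the falls over all genes. With OTX015, 46 genes were on both lists, 66.7% of the AML3 list and 100% of the AML2 list, beside 54.8% and 72.1% over all genes. Since 62 (JQ1) and 69 (OTX015) of the 81 members fell in AML3, a large shared part follows from those counts alone.

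Together these genes took 1.80%, 1.86% and 0.933% of gene tags in the AML3 JQ1 libraries and 1.58%, 1.64% and 0.944% in the AML3 OTX015 libraries, against 2.43%, 2.41% and 2.22% with vehicle. In AML2 they took 2.10%, 1.96% and 1.81% with JQ1 and 1.77%, 2.14% and 1.78% with OTX015, against 3.21%, 2.68% and 2.55% with vehicle. Every drug library was below every vehicle library of its line. In AML3 the lowest shares were those of the drug libraries numbered 3, and in vehicle-treated AML2 library 1 was the highest. CAGE counts in bulk samples are relative, and fewer cells with a transcript cannot be told apart from less of it per cell.

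**Figure D1:**
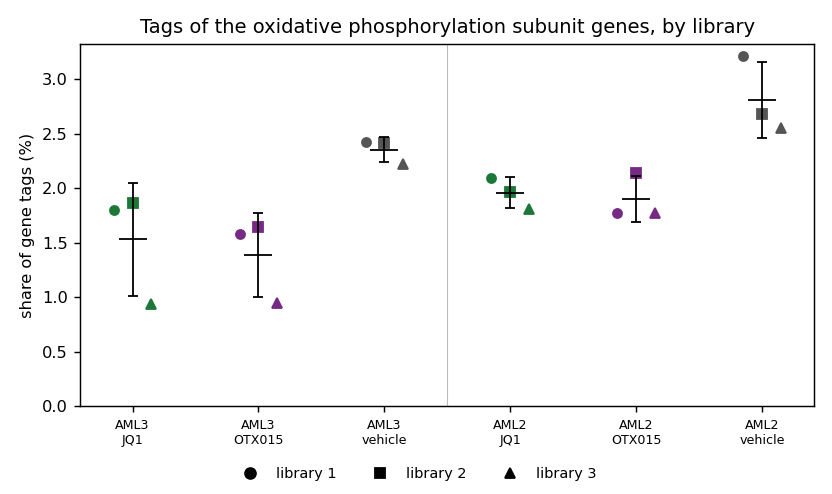
Share of each library's gene tags (%, y axis) that fell on the 85 genes, by group (x axis); symbols are libraries 1 to 3, and bars show the mean ± SD. All drug libraries lie below the vehicle libraries of their line, and the AML3 drug libraries numbered 3 are lowest, at 0.933% and 0.944%.

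Without both AML3 drug libraries numbered 3, 56 members fell with JQ1 and 69 with OTX015 in AML3, with medians of -0.71 and -0.96, and 54 and 60 fell in AML2. Of all genes, 22.4% and 25.4% then fell in AML3 and 19.4% and 22.2% in AML2. The number that fell depended on single libraries: with JQ1 in AML2 it was 18 without JQ1 library 3, 20 without vehicle library 1 and 23 without JQ1 library 2. Of all genes, 13.3%, 14% and 13.4% fell in those fits. With JQ1 in AML3 the number was 37 without JQ1 library 3 alone, where 19.7% of all genes fell. With OTX015 in AML2 it was 30 without vehicle library 1, where 16.7% of all genes fell. With library size in place of TMM scaling, the median log2 fold change of all genes was higher by 0.16 with JQ1 and 0.19 with OTX015 in AML2 and by 0.40 and 0.47 in AML3. The medians of the members relative to all genes were then -0.74 with JQ1 and -0.91 with OTX015 in AML2 and -1.03 with JQ1 and -1.23 with OTX015 in AML3. Under that scaling 27.4% of all calls with JQ1 in AML3 were falls, beside 47.3% with TMM, and 27.3% beside 47.6% with OTX015. In AML2 falls were 40.2% beside 50.2% of calls with JQ1, and 38.9% beside 49.3% with OTX015.

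**Figure D2:**
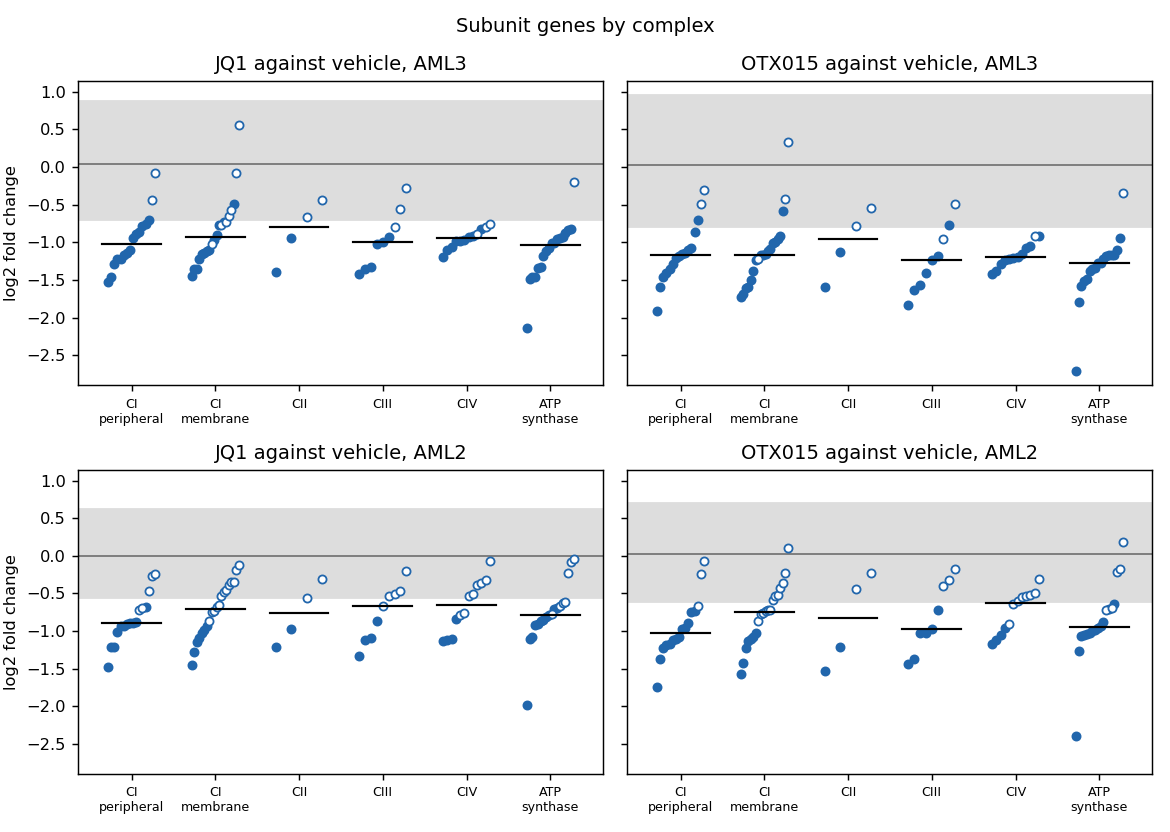
Log2 fold change (y axis) of each tested subunit gene by complex (x axis), in the 4 comparisons with vehicle. Filled points passed the test, open points did not, black bars are the medians of the genes shown, and the grey line and band are the median and the interquartile range of all genes; subunit genes lie mostly below the band, and NDUFA8 is the point above the grey line in AML3.

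Complex I is the entry point for electrons from NADH. Of the 16 genes of its peripheral arm, which holds the flavin and the iron-sulphur clusters, 14 fell with JQ1 and 14 with OTX015 in AML3 (medians -1.02 and -1.17), and 11 and 13 fell in AML2 (medians -0.89 and -1.02). NDUFS8, which carries iron-sulphur clusters, had 72.9, 69.8 and 41.5 CPM with JQ1 and 55.7, 52.6 and 32.3 CPM with OTX015 in AML3, against 169, 188 and 190.0 CPM with vehicle. It had 108, 129.6 and 86.4 CPM with JQ1 and 89.9, 98.7 and 46.3 CPM with OTX015 in AML2, against 233, 178 and 218 CPM with vehicle. All drug libraries lay below all vehicle libraries in both lines. The log2 fold changes were -1.53 ± 0.26 (adjusted p = 3.47e-05) and -1.91 ± 0.27 (adjusted p = 2.66e-06) in AML3, and -0.94 ± 0.25 (adjusted p = 0.00461) and -1.37 ± 0.26 (adjusted p = 1.31e-04) in AML2, with JQ1 before OTX015.

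NDUFA9, a subunit near the coenzyme Q site, had 36.5, 38.05 and 21.6 CPM with JQ1 and 37.1, 42.7 and 12.9 CPM with OTX015 in AML3, against 87.95, 78.7 and 76.6 CPM with vehicle. In AML2 it had 51.4, 55.5 and 51.2 CPM with JQ1 and 43.2, 50.3 and 35.8 CPM with OTX015, against 167, 146 and 129 CPM with vehicle. Its libraries did not overlap between drug and vehicle in either line, and it was among the 5 genes with the lowest log2 fold change in AML2 with either compound, at -1.48 ± 0.23 (adjusted p = 2.63e-05) and -1.74 ± 0.24 (adjusted p = 3.48e-06). In AML3 it had log2 fold changes of -1.29 ± 0.25 (adjusted p = 1.85e-04) with JQ1 and -1.29 ± 0.26 (adjusted p = 1.82e-04) with OTX015. NDUFV1, the subunit that binds NADH and flavin, averaged 48.3 ± 8.70 CPM with JQ1 and 51.2 ± 6.91 CPM with OTX015 in AML3, against 114 ± 11.6 CPM with vehicle (SD, n = 3 each), and fell in all 4 comparisons. NDUFS1, an iron-sulphur subunit, averaged 37.4 ± 7.58 CPM with JQ1 and 33.8 ± 17.01 CPM with OTX015 in AML3, against 65.3 ± 6.09 CPM with vehicle. It fell in all 4, with its AML3 call under JQ1 lost without AML3 vehicle library 1 or AML3 JQ1 library 3 (adjusted p = 0.0637 at most) and under OTX015 without AML3 OTX015 library 1 or AML3 OTX015 library 3 (adjusted p = 0.0583 at most). NDUFV2, the member of this arm with the most tags, fell with JQ1 and OTX015 in AML3 (-1.10 ± 0.30 and -1.40 ± 0.30) and with JQ1 in AML2, where the call was lost without AML2 vehicle library 1, AML2 JQ1 library 2 or AML2 JQ1 library 3 (adjusted p = 0.104 at most). NDUFA2 and NDUFV3 passed the test in none of the 4.

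Of the 20 membrane arm genes, which form the proton-pumping part, 13 fell with JQ1 and 17 with OTX015 in AML3 (medians -0.93 and -1.16), and 7 fell with each in AML2 (medians -0.71 and -0.74). NDUFB8 had 235, 215 and 173 CPM with JQ1 and 172, 252 and 145 CPM with OTX015 in AML2, against 698, 515 and 491 CPM with vehicle. In AML3 it had 221, 238 and 153 CPM with JQ1 and 177, 202 and 129 CPM with OTX015, against 349, 346 and 328 CPM with vehicle. The libraries did not overlap in either line, and the log2 fold changes were -1.45 ± 0.26 (adjusted p = 1.24e-04) and -1.57 ± 0.26 (adjusted p = 3.94e-05) in AML2 and -0.73 ± 0.26 (adjusted p = 0.0209) and -1.0 ± 0.26 (adjusted p = 0.00246) in AML3. The AML3 call with JQ1 was lost without AML3 vehicle library 1 or AML3 JQ1 library 3 (adjusted p = 0.0738 at most). NDUFS5, the member of this arm with the most tags, averaged 305 ± 179 CPM with JQ1 and 239 ± 117 CPM with OTX015 in AML3, against 686 ± 114 CPM with vehicle, and fell in all 4 comparisons. Its calls were lost without AML3 vehicle library 1 or AML3 JQ1 library 3 (adjusted p = 0.0733 at most) with JQ1 in AML3, without AML2 vehicle library 1, AML2 vehicle library 2, AML2 JQ1 library 2 or AML2 JQ1 library 3 (adjusted p = 0.138 at most) with JQ1 in AML2 and without AML2 vehicle library 1, AML2 vehicle library 2, AML2 OTX015 library 1 or AML2 OTX015 library 3 (adjusted p = 0.108 at most) with OTX015 in AML2.

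NDUFA8, a membrane arm subunit on the intermembrane side, had log2 fold changes above 0 in AML3. It had 389, 478 and 117 CPM with JQ1 and 365, 319 and 157 CPM with OTX015 in AML3, against 208, 233 and 233 CPM with vehicle. Libraries 1 and 2 with either compound were above all vehicle libraries and library 3 was below them. With all libraries the change was 0.56 ± 0.34 (adjusted p = 0.174) with JQ1 and 0.34 ± 0.34 (adjusted p = 0.42) with OTX015 and did not pass the test. Without JQ1 library 3 alone NDUFA8 rose with JQ1 by 0.95 ± 0.27 (adjusted p = 0.00544). Without OTX015 library 3 alone it had a log2 fold change of 0.61 ± 0.34 with OTX015 and did not pass (adjusted p = 0.138). Without both AML3 drug libraries numbered 3 it rose, by 0.94 ± 0.21 with JQ1 (adjusted p = 6.23e-04) and 0.60 ± 0.21 with OTX015 (adjusted p = 0.0207), and with library size alone by 0.91 ± 0.28 (adjusted p = 0.00927) and 0.80 ± 0.28 (adjusted p = 0.0192). In AML2 it had 95.9, 93.4 and 74.1 CPM with JQ1 and 82.9, 126 and 75.8 CPM with OTX015, against 150.0, 91.7 and 132 CPM with vehicle, and those groups overlapped. The difference of the JQ1 change between AML3 and AML2 was 1.05 ± 0.50 (adjusted p = 0.229) and that of the OTX015 change 0.70 ± 0.50 (adjusted p = 0.443).

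NDUFA8 tags came from a pair of start clusters with 1 base between them on chromosome 9 (hg19 coordinates as the table writes them). The upstream cluster, chr9:124922021-124922074, held 77.1% of the tags and the downstream one, chr9:124922006-124922019, held 22.9%. The downstream cluster had 138, 161 and 31.6 CPM with JQ1 and 137, 112 and 42.2 CPM with OTX015 in AML3, against 37.8, 56.5 and 25.8 CPM with vehicle. Libraries 1 and 2 of each compound were above every vehicle library, and library 3 of each was within the vehicle range. In the test over all 12867 promoters this cluster rose with JQ1, by 1.48 ± 0.40 (adjusted p = 0.00311), and with OTX015, by 1.30 ± 0.41 (adjusted p = 0.00825). The upstream cluster had log2 fold changes of 0.27 ± 0.31 (adjusted p = 0.495) with JQ1 and 0.03 ± 0.32 (adjusted p = 0.945) with OTX015. In AML2 the downstream cluster had 5.73, 4.45 and 0 CPM with JQ1 and 5.89, 10.7 and 4.26 CPM with OTX015, against 12.2, 4.49 and 16.98 CPM with vehicle.

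NDUFA6, a peripheral arm subunit on chromosome 22, and NDUFA6-DT start in opposite directions. Their RefSeq windows share 260 bases, and their start clusters, chr22:42486747-42486783 on the minus strand and chr22:42486923-42487002 on the plus strand (hg19), lie 139 bases apart. NDUFA6 had 144, 134 and 48.7 CPM with JQ1 and 128, 139 and 25.8 CPM with OTX015 in AML3, against 337, 300.2 and 279 CPM with vehicle. In AML2 it had 154, 171 and 201 CPM with JQ1 and 135, 189 and 116 CPM with OTX015, against 348, 301 and 350.1 CPM with vehicle. All drug libraries were lower, and the log2 fold changes were -1.46 ± 0.36 (adjusted p = 0.0017) and -1.59 ± 0.37 (adjusted p = 7.18e-04) in AML3 and -0.93 ± 0.35 (adjusted p = 0.0428) and -1.17 ± 0.36 (adjusted p = 0.0108) in AML2. NDUFA6-DT, a divergent transcript, had 123 tags in all. It had 9.78, 9.51 and 19.8 CPM with JQ1 and 12.01, 13.1 and 12.9 CPM with OTX015 in AML3, against 1.17, 3.46 and 5.67 CPM with vehicle. In AML2 it had 6.85, 8.81 and 8.82 CPM with JQ1 and 15.2, 12.6 and 6.32 CPM with OTX015, against 0.843, 0 and 2.56 CPM with vehicle. Every drug library lay above every vehicle library of its line. It rose by 2.02 ± 0.55 (adjusted p = 0.00372) and 2.08 ± 0.56 (adjusted p = 0.00282) in AML3, and the JQ1 call was lost without AML3 vehicle library 1 (adjusted p = 0.0519). In AML2, where vehicle libraries held 3 tags, the ratio of tags per gene tag was 11.5 with JQ1 (95% counting interval 3.42 to 60.0) and 17.4 with OTX015 (5.39 to 89.2), and the test gave adjusted p = 0.00164 and 1.32e-04.

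NDUFC2-KCTD14 joins the membrane arm gene NDUFC2 to its neighbour on chromosome 11. Its tags came from 3 start clusters beside that of NDUFC2, chr11:77790870-77790934 on the minus strand (hg19). One of them, chr11:77790936-77790947, is 1 base upstream and another, chr11:77790833-77790844, is 25 bases downstream, so that which transcript a tag came from is uncertain. NDUFC2-KCTD14 had 2, 2 and 2 tags with JQ1 and 0, 2 and 0 with OTX015 in the AML3 libraries, against 55, 38 and 26 with vehicle. In AML2 it had 8, 9 and 2 tags with JQ1 and 4, 9 and 1 with OTX015, against 45, 42 and 19 with vehicle. All drug libraries were far below vehicle in both lines, and it fell in all 4 comparisons. Tags per gene tag were 8.75% of vehicle with JQ1 (95% counting interval 3.15% to 19.6%) and 3.53% with OTX015 (0.423% to 13.0%) in AML3, and 29.3% (17.0% to 48.1%) and 23.8% (12.6% to 41.7%) in AML2. NDUFC2 itself had 259.6, 297 and 112 CPM with JQ1 and 247, 214 and 90.5 CPM with OTX015 in AML3, against 443, 404 and 472 CPM with vehicle, and fell, at log2 fold changes of -0.97 ± 0.34 (adjusted p = 0.02) and -1.24 ± 0.34 (adjusted p = 0.00374). In AML2 NDUFC2 had log2 fold changes of -0.74 ± 0.34 (adjusted p = 0.0908) with JQ1 and -0.76 ± 0.34 (adjusted p = 0.073) with OTX015. The downstream cluster was used chiefly in AML3, with 29, 17 and 17 tags against 3, 4 and 0 in AML2 with vehicle, and with JQ1 it had 1, 2 and 1 tags in AML3.

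**Figure D3:**
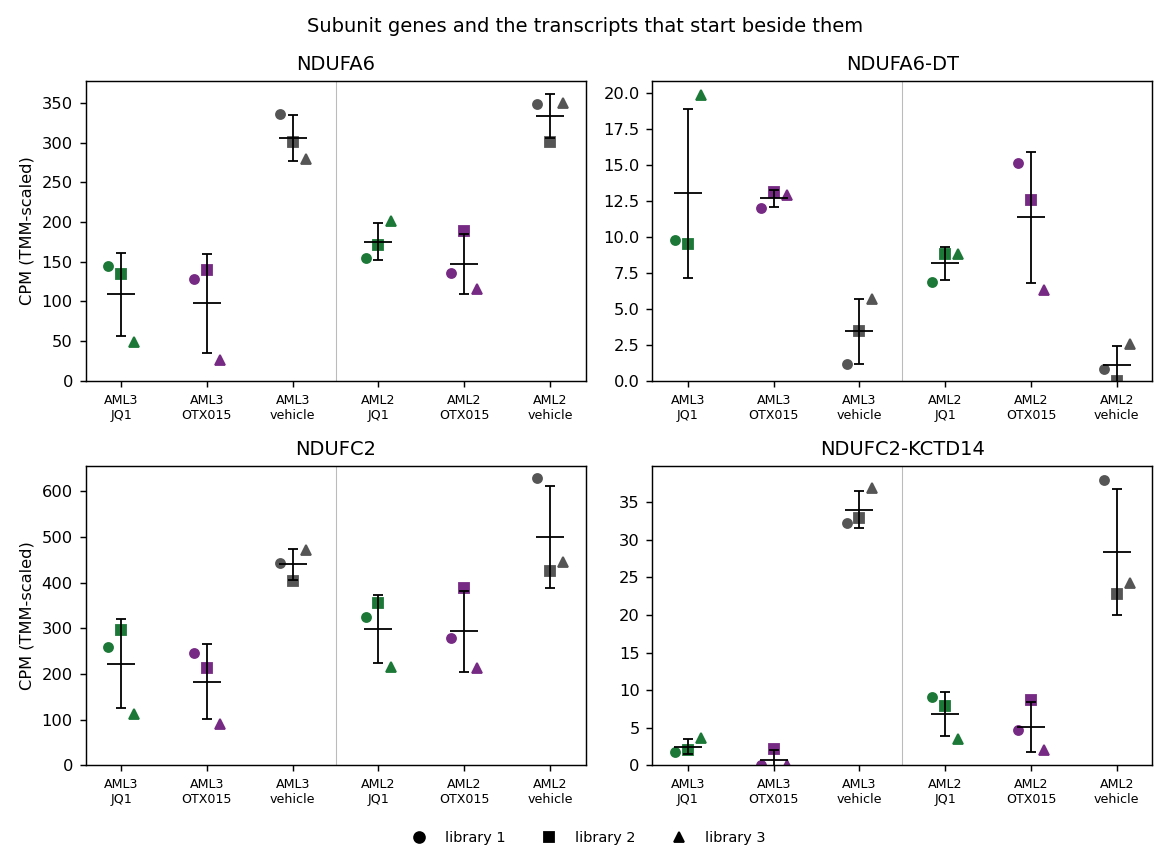
Levels (CPM, y axis) of NDUFA6, NDUFA6-DT, NDUFC2 and NDUFC2-KCTD14 by group (x axis); symbols are libraries 1 to 3, and bars are means ± SD. NDUFA6 is lower and NDUFA6-DT higher in every drug library than in every vehicle library of its line, and NDUFC2-KCTD14 is at most 3.61 CPM in drug-treated AML3.

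Complex II, succinate dehydrogenase, links the citric acid cycle to the chain. Its iron-sulphur subunit SDHB and membrane anchor SDHD fell in all 4 comparisons, and the flavin subunit SDHA and the anchor SDHC passed in none. SDHB had 85.4, 87.7 and 41.5 CPM with JQ1 and 73.2, 73.4 and 40.9 CPM with OTX015 in AML3, against 162, 209 and 211 CPM with vehicle. It had 132, 129.6 and 125 CPM with JQ1 and 109, 121 and 75.8 CPM with OTX015 in AML2, against 365, 258 and 273 CPM with vehicle. The groups did not overlap, and the changes were -1.40 ± 0.27 (adjusted p = 1.35e-04) and -1.59 ± 0.27 (adjusted p = 3.17e-05) in AML3 and -1.21 ± 0.26 (adjusted p = 6.72e-04) and -1.53 ± 0.26 (adjusted p = 4.83e-05) in AML2. SDHA had 166, 218 and 128 CPM with JQ1 and 156, 172 and 149 CPM with OTX015 in AML3, against 246, 241 and 208 CPM with vehicle. Its changes there were -0.44 ± 0.23 (adjusted p = 0.117) and -0.55 ± 0.23 (adjusted p = 0.0502). SDHD had log2 fold changes of -0.94 ± 0.31 with JQ1 and -1.13 ± 0.32 with OTX015 in AML3, and -0.97 ± 0.28 and -1.22 ± 0.29 in AML2. The SDHD calls with JQ1 were lost in AML3 without AML3 vehicle library 1 or AML3 JQ1 library 3 (adjusted p = 0.0583 at most) and in AML2 without AML2 vehicle library 1 (adjusted p = 0.0998). SDHC had log2 fold changes of -0.66 ± 0.34 (adjusted p = 0.104) and -0.79 ± 0.34 (adjusted p = 0.0546) in AML3 and -0.30 ± 0.32 (adjusted p = 0.499) and -0.23 ± 0.32 (adjusted p = 0.611) in AML2.

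SDHB tags came from a main start cluster, chr1:17380510-17380541 on the minus strand (hg19), with 85.6% of them, and from clusters upstream of it. The main cluster fell, at log2 fold changes of -1.70 ± 0.29 (adjusted p = 3.08e-05) with JQ1 and -1.93 ± 0.30 (adjusted p = 7.07e-06) with OTX015 in AML3, and -1.49 ± 0.28 (adjusted p = 1.39e-04) and -1.69 ± 0.28 (adjusted p = 2.87e-05) in AML2. The cluster at chr1:17380600-17380615 had log2 fold changes of 0.09 ± 0.35 (adjusted p = 0.887) and -0.14 ± 0.37 (adjusted p = 0.769) in AML3 and -0.48 ± 0.32 (adjusted p = 0.267) with JQ1 in AML2, and fell, at a log2 fold change of -1.43 ± 0.37 (adjusted p = 0.00281) with OTX015 in AML2. The share of SDHB tags outside the main cluster was 23.96, 25.3 and 39.1% with JQ1 and 22.4, 32.8 and 36.8% with OTX015 in AML3, against 11.6, 9.96 and 6.71% with vehicle. In AML2 it was 22.4, 21.8 and 28.2% with JQ1 and 20.4, 13.6 and 19.4% with OTX015, against 8.54, 11.6 and 7.94% with vehicle. Such a shift was looked for in 16 genes with at least 500 tags and a further cluster of at least 5 percent. The SDHB shares did not overlap in any of the 4 comparisons, and a two-sided exact permutation test gave p = 0.1 in each, the smallest that 3 against 3 libraries allow. Any gene whose groups do not overlap has that p, so it adds nothing to the separation. Of the 16 genes, shares lay above vehicle in 5 and below in 2 with JQ1 in AML3, and in 5 and 4 with OTX015. In AML2 they lay above in 2 and below in 5 with JQ1, and in 2 and 6 with OTX015. Such shares were not examined over all genes, so whether these counts are unlike those of other genes is not known.

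**Figure D4:**
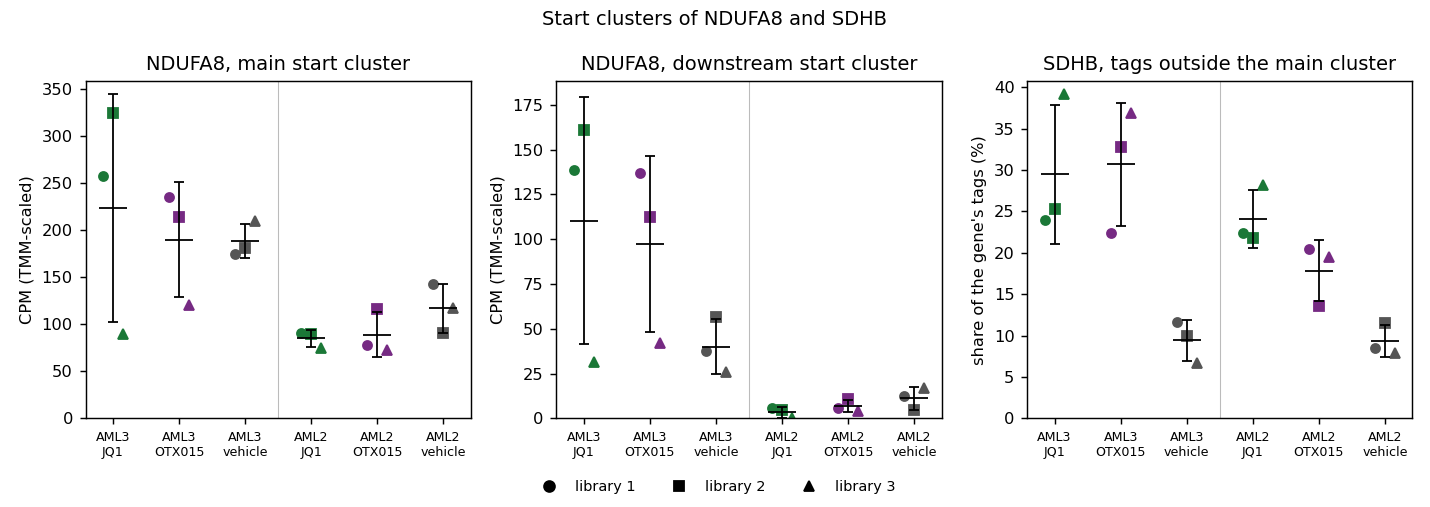
Levels (CPM, y axis) of the main and the downstream start cluster of NDUFA8 and the share (%) of SDHB tags outside its main cluster, by group (x axis); symbols are libraries 1 to 3 and bars are means ± SD. The NDUFA8 downstream cluster stands highest in libraries 1 and 2 of drug-treated AML3, and the SDHB share is above vehicle in every drug library.

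Complex III carries electrons from coenzyme Q to cytochrome c. Of its 9 tested genes, 6 fell with JQ1 and 7 with OTX015 in AML3 (medians -0.99 and -1.23), and 4 and 6 fell in AML2 (medians -0.67 and -0.97). CYC1, which encodes cytochrome c1, had 120.0, 147 and 75.8 CPM with JQ1 and 126, 115 and 64.6 CPM with OTX015 in AML3, against 322, 353 and 247 CPM with vehicle. It had 256, 234 and 157 CPM with JQ1 and 199.7, 237 and 162 CPM with OTX015 in AML2, against 605, 613 and 409 CPM with vehicle. All drug libraries were below vehicle, with changes of -1.41 ± 0.29 (adjusted p = 2.83e-04) and -1.57 ± 0.29 (adjusted p = 8.39e-05) in AML3 and -1.33 ± 0.28 (adjusted p = 6.99e-04) and -1.44 ± 0.28 (adjusted p = 2.67e-04) in AML2. UQCRFS1, the Rieske iron-sulphur protein, had 108, 126 and 46.9 CPM with JQ1 and 78.6, 72.3 and 51.7 CPM with OTX015 in AML3, against 242, 223 and 272 CPM with vehicle, and fell, at log2 fold changes of -1.36 ± 0.31 (adjusted p = 7.03e-04) and -1.84 ± 0.32 (adjusted p = 3.31e-05). In AML2 the log2 fold changes were -0.67 ± 0.29 (adjusted p = 0.0784) with JQ1 and -1.02 ± 0.30 (adjusted p = 0.00772) with OTX015, and the OTX015 call was lost without AML2 vehicle library 1 (adjusted p = 0.0838). UQCRFS1P1, its pseudogene, was too low to be tested, with 66 tags in all, and reads of the near-identical pair may be split. UQCRH, the complex III gene with the most tags, averaged 457 ± 254 CPM with JQ1 and 386 ± 186 CPM with OTX015 in AML3, against 913 ± 45.8 CPM with vehicle. It fell there with both, but not without AML3 vehicle library 1, AML3 vehicle library 2, AML3 vehicle library 3 or AML3 JQ1 library 3 (adjusted p = 0.158 at most) for JQ1 or AML3 OTX015 library 3 (adjusted p = 0.0566) for OTX015. UQCR11 and UQCRB passed in none of the 4.

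Complex IV, cytochrome c oxidase, had 12 tested genes, of which 9 fell with JQ1 and 11 with OTX015 in AML3 (medians -0.95 and -1.20), and 4 fell with each in AML2 (medians -0.65 and -0.62). COX5B, a structural subunit, had 395, 439 and 155 CPM with JQ1 and 283, 308 and 170.1 CPM with OTX015 in AML3, against 586, 583 and 591 CPM with vehicle. In AML2 it had 1278, 1104 and 1111 CPM with JQ1 and 1008, 1112 and 846 CPM with OTX015, against 1339.8, 1153 and 1169 CPM with vehicle. Drug libraries were below vehicle in AML3 and overlapped vehicle with JQ1 in AML2. The changes were -0.82 ± 0.32 (adjusted p = 0.0364) and -1.20 ± 0.33 (adjusted p = 0.00336) in AML3 and -0.07 ± 0.32 (adjusted p = 0.905) and -0.30 ± 0.32 (adjusted p = 0.475) in AML2, and the AML3 call with JQ1 was lost without AML3 vehicle library 1, AML3 vehicle library 2, AML3 vehicle library 3 or AML3 JQ1 library 3 (adjusted p = 0.167 at most). Of the isoform genes, the ubiquitous COX4I1, COX6A1, COX6B1, COX7A2, COX7B and COX8A were measured, and the tissue-restricted COX4I2, COX6A2, COX6B2, COX7A1, COX7B2 and COX8C were not analysed here. COX7B fell in all 4 comparisons, at log2 fold changes of -1.20 ± 0.36 with JQ1 and -1.42 ± 0.37 with OTX015 in AML3 and -1.10 ± 0.35 and -1.17 ± 0.35 in AML2. Its AML2 calls were lost without AML2 vehicle library 1 or AML2 JQ1 library 3 (adjusted p = 0.0834 at most) for JQ1 and AML2 vehicle library 1 (adjusted p = 0.0531) for OTX015. COX8A fell in AML3, at log2 fold changes of -0.98 ± 0.30 (adjusted p = 0.00843) with JQ1 and -1.04 ± 0.30 (adjusted p = 0.00478) with OTX015, and had log2 fold changes of -0.32 ± 0.29 (adjusted p = 0.423) and -0.49 ± 0.29 (adjusted p = 0.188) in AML2. COX7A2L, which helps join complexes III and IV, fell in AML3, at log2 fold changes of -1.11 ± 0.35 (adjusted p = 0.00983) and -1.19 ± 0.35 (adjusted p = 0.00608). COX4I1 fell in AML3, at log2 fold changes of -1.07 ± 0.35 (adjusted p = 0.0144) and -1.23 ± 0.36 (adjusted p = 0.00512), with JQ1 not without AML3 JQ1 library 3 (adjusted p = 0.0657). COX7A2 fell in AML3, at log2 fold changes of -0.98 ± 0.38 and -1.38 ± 0.39, with JQ1 not without AML3 vehicle library 1, AML3 vehicle library 2, AML3 vehicle library 3 or AML3 JQ1 library 3 (adjusted p = 0.149 at most). COX6B1 fell in AML3, at log2 fold changes of -0.97 ± 0.39 and -1.16 ± 0.40, with JQ1 not without AML2 OTX015 library 1, AML3 vehicle library 1, AML3 vehicle library 2, AML3 vehicle library 3, AML3 JQ1 library 1 or AML3 JQ1 library 3 (adjusted p = 0.173 at most) and with OTX015 not without AML3 OTX015 library 3 (adjusted p = 0.0778). COX6A1 fell only with OTX015 in AML3 among the 4 comparisons, at a log2 fold change of -0.92 ± 0.36, and not without AML3 vehicle library 1, AML3 vehicle library 2, AML3 vehicle library 3 or AML3 OTX015 library 3 (adjusted p = 0.135 at most). NDUFA4, a complex IV subunit despite its name, passed in none of the 4, and its hypoxia-related paralog NDUFA4L2 had 10 tags in all.

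ATP synthase had 18 tested genes, of which 17 fell with JQ1 and 17 with OTX015 in AML3 (medians -1.04 and -1.27), and 11 and 13 fell in AML2 (medians -0.78 and -0.94). The c subunit, which forms the rotor ring in the membrane, is encoded by ATP5MC1, ATP5MC2 and ATP5MC3, which make the same mature protein. ATP5MC1 had 39.1, 35.9 and 19.8 CPM with JQ1 and 29.5, 21.9 and 10.8 CPM with OTX015 in AML3, against 147, 160.1 and 128 CPM with vehicle. It had 69.6, 74.04 and 52.9 CPM with JQ1 and 43.2, 68.7 and 31.6 CPM with OTX015 in AML2, against 297, 260.4 and 231 CPM with vehicle. No drug library reached the lowest vehicle library of its line. The changes were -2.14 ± 0.28 (adjusted p = 1.02e-06) and -2.71 ± 0.30 (adjusted p = 8.29e-08) in AML3, and -1.99 ± 0.26 (adjusted p = 1.88e-06) and -2.40 ± 0.27 (adjusted p = 1.49e-07) in AML2, the lowest log2 fold changes of the 79 tested subunit genes in each comparison. ATP5MC2 had 417, 439.6 and 132 CPM with JQ1 and 401, 361 and 192 CPM with OTX015 in AML3, against 921, 892 and 939 CPM with vehicle, and fell, at log2 fold changes of -1.47 ± 0.35 (adjusted p = 0.00133) and -1.52 ± 0.35 (adjusted p = 8.54e-04). In AML2 ATP5MC2 had log2 fold changes of -0.62 ± 0.35 (adjusted p = 0.172) with JQ1 and -1.05 ± 0.35 (adjusted p = 0.0188) with OTX015, and the OTX015 call was lost without AML2 vehicle library 1, AML2 OTX015 library 2 or AML2 OTX015 library 3 (adjusted p = 0.0762 at most). ATP5MC3 had 258, 265 and 77.6 CPM with JQ1 and 123, 197 and 86.1 CPM with OTX015 in AML3, against 402, 478 and 346 CPM with vehicle. It fell, at log2 fold changes of -1.01 ± 0.38 (adjusted p = 0.0276) and -1.57 ± 0.39 (adjusted p = 0.00137) in AML3 and -1.07 ± 0.37 (adjusted p = 0.0268) and -1.04 ± 0.37 (adjusted p = 0.028) in AML2. These ATP5MC3 calls were lost with JQ1 in AML3 without AML3 vehicle library 1, AML3 vehicle library 2 or AML3 JQ1 library 3 (adjusted p = 0.119 at most), with JQ1 in AML2 without AML2 vehicle library 1, AML2 JQ1 library 2 or AML2 JQ1 library 3 (adjusted p = 0.127 at most) and with OTX015 in AML2 without AML2 vehicle library 1, AML2 OTX015 library 1 or AML2 OTX015 library 3 (adjusted p = 0.138 at most). With vehicle, ATP5MC1 was the least abundant of the 3, at 145 ± 16.3 CPM in AML3 and 263 ± 33.2 CPM in AML2 (SD, n = 3 each).

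**Figure D5:**
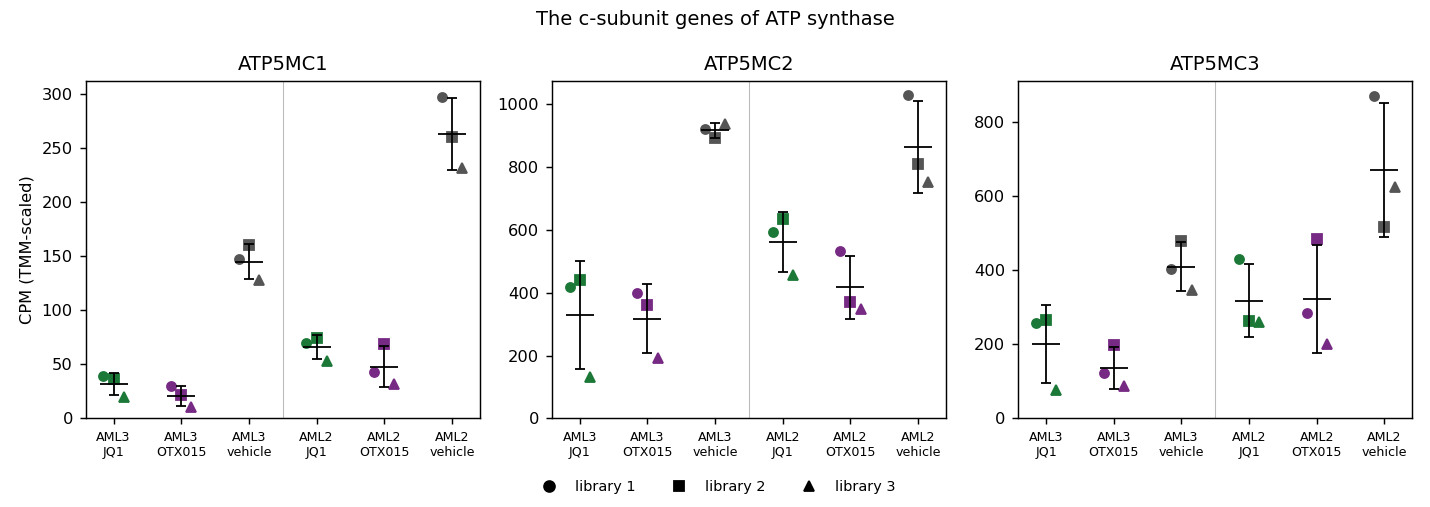
Levels (CPM, y axis) of ATP5MC1, ATP5MC2 and ATP5MC3 by group (x axis); symbols are libraries 1 to 3, and bars are means ± SD. The y axes differ. ATP5MC1 lies between 10.8 and 39.1 CPM in drug-treated AML3 and between 128 and 160.1 CPM in vehicle-treated AML3.

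ATP5F1B, the catalytic beta subunit, had 219.6, 239 and 164 CPM with JQ1 and 196, 182 and 114 CPM with OTX015 in AML3, against 340.1, 377 and 403 CPM with vehicle, and fell, at log2 fold changes of -0.84 ± 0.26 (adjusted p = 0.00833) and -1.17 ± 0.26 (adjusted p = 5.03e-04). In AML2 it fell, at log2 fold changes of -0.71 ± 0.25 and -0.71 ± 0.25, calls that were lost without AML2 vehicle library 2, AML2 vehicle library 3, AML2 JQ1 library 1, AML2 JQ1 library 2 or AML2 JQ1 library 3 (adjusted p = 0.102 at most) for JQ1 and AML2 vehicle library 2, AML2 vehicle library 3, AML2 OTX015 library 2 or AML2 OTX015 library 3 (adjusted p = 0.111 at most) for OTX015. ATP5MF, the f subunit in the membrane, fell, at log2 fold changes of -1.48 ± 0.36 (adjusted p = 0.00129) with JQ1 and -1.79 ± 0.36 (adjusted p = 1.93e-04) with OTX015 in AML3. ATP5F1E, the epsilon subunit, was the ATP synthase gene that passed in none of the 4 comparisons, with changes of -0.20 ± 0.39 (adjusted p = 0.697) and -0.34 ± 0.39 (adjusted p = 0.469) in AML3 and -0.04 ± 0.39 (adjusted p = 0.968) and 0.18 ± 0.39 (adjusted p = 0.745) in AML2. ATP5IF1, the inhibitor of ATP hydrolysis, fell in all 4, at log2 fold changes of -1.18 ± 0.25 and -1.36 ± 0.25 in AML3 and -0.79 ± 0.24 and -0.64 ± 0.24 in AML2.

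Start clusters were found for 81 of the 85 genes, 167 clusters in all, by matching the counts of the promoter table to those of the gene table in all 18 libraries. In 66 genes the main cluster held at least 90 percent of the tags. Of 104 clusters tested, 73 fell with JQ1 and 83 with OTX015 in AML3, where 23.8% and 25.8% of all promoters fell. In AML2, 50 and 56 fell, where 18.1% and 20.0% of all promoters fell. In each comparison 3 clusters rose, where 26.5% (JQ1 in AML3), 28.4% (OTX015 in AML3), 17.1% (JQ1 in AML2) and 20.5% (OTX015 in AML2) of all promoters rose. Besides that of NDUFA6-DT, these were clusters of NDUFA2 and COX5B in AML2 and of NDUFA8 and ATP5PF in AML3, named after their values were seen. A minor downstream cluster of COX5B, chr2:98262558-98262569 on the plus strand (hg19), with 1.33% of its tags, rose in AML2 by 3.17 ± 0.39 (adjusted p = 7.44e-07) with JQ1 and 2.82 ± 0.41 (adjusted p = 4.91e-06) with OTX015. It had 32, 39 and 25 tags with JQ1 and 22, 27 and 19 tags with OTX015 in AML2, against 4, 6 and 5 tags with vehicle. In AML3 it held 0 or 1 tags in every library. The main COX5B cluster, chr2:98262497-98262549, had log2 fold changes in AML2 of -0.14 ± 0.33 (adjusted p = 0.774) with JQ1 and -0.37 ± 0.33 (adjusted p = 0.382) with OTX015. ATP5PF encodes coupling factor 6 of the ATP synthase stalk, and an upstream cluster, chr21:27107323-27107334 on the minus strand (hg19), had 11, 9 and 3 tags with JQ1 and 10, 12 and 0 tags with OTX015 in AML3, against 1, 0 and 2 tags with vehicle. Its fitted rises of 3.16 ± 0.84 (adjusted p = 0.00296) and 3.26 ± 0.85 (adjusted p = 0.00204) rest on those few vehicle tags. An upstream cluster of NDUFA2, chr5:140027357-140027370 on the minus strand (hg19), rose in AML2, by 1.09 ± 0.39 (adjusted p = 0.029) with JQ1 and 1.03 ± 0.39 (adjusted p = 0.0377) with OTX015. That cluster had 25.2, 31.1 and 28.4 CPM with JQ1 and 29.4, 30.2 and 19.2 CPM with OTX015 in AML2, against 20.9, 12.9 and 3.92 CPM with vehicle. The OTX015 libraries overlapped vehicle there. In AML3 it had log2 fold changes of -1.10 ± 0.62 (adjusted p = 0.14) with JQ1 and fell, at a log2 fold change of -1.71 ± 0.71 (adjusted p = 0.0435) with OTX015. Between the lines with vehicle, 21 of the 104 clusters were lower and 4 higher in AML3 than in AML2, where 11.3% and 10.7% of all promoters were. The change with JQ1 differed between the lines for none, where 3.30% of all promoters were lower and 2.25% higher in AML3. The change with OTX015 differed for 1, the NDUFA2 cluster, where 4.16% were lower and 2.14% higher. No cluster passed the unpaired test between OTX015 and JQ1, where 0% of all promoters did. Both clusters of ATP5MC1 that were tested fell in all 4, the main one, chr17:46970134-46970170, at log2 fold changes of -2.20 ± 0.31 (adjusted p = 2.19e-06) with JQ1 and -3.10 ± 0.35 (adjusted p = 5.77e-08) with OTX015 in AML3.

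Between the lines with vehicle, 11 of 81 genes were lower and 1 was higher in AML3 than in AML2, where 11.7% of all genes were lower and 11.4% higher. The median log2 difference was -0.38, beside -0.04 over all genes. The 11 lower genes were NDUFA1, COX5B, UQCR10, SDHD, NDUFA9, ATP5MC1, CYC1, UQCRC2, UQCRC1, NDUFB4 and NDUFB8. NDUFA1, a membrane arm subunit, had 211, 221 and 201 CPM in AML3, against 611, 336 and 383 CPM in AML2, a difference of -1.07 ± 0.35 (adjusted p = 0.0264). COX5B had 586, 583 and 591 CPM in AML3, against 1339.8, 1153 and 1169 CPM in AML2, a difference of -1.06 ± 0.32 (adjusted p = 0.0176). UQCR10, a small complex III subunit, had 388, 367 and 363 CPM in AML3, against 869, 673 and 603 CPM in AML2, a difference of -0.94 ± 0.32 (adjusted p = 0.0332). The libraries of the lines did not overlap for these genes. SDHA was the 1 that was higher, with 246, 241 and 208 CPM in AML3, against 150.0, 136 and 133 CPM in AML2, a difference of 0.73 ± 0.23 (adjusted p = 0.0212). These counts moved with single libraries: 3 genes were lower without AML2 vehicle library 1, AML3 vehicle library 2 or AML3 vehicle library 3, 5 without AML3 vehicle library 1, and 20 without AML3 JQ1 library 3. Of all genes, 9.31%, 8.56%, 9.7%, 8.12% and 13.7% were lower in those fits, in that order. None of NDUFA1, COX5B and UQCR10 passed without AML2 vehicle library 1 or any one AML3 vehicle library, with adjusted p of at most 0.165, 0.0633 and 0.132, and UQCR10 also not without AML2 vehicle library 2. SDHA did not pass without AML2 vehicle library 2, AML2 vehicle library 3, AML3 vehicle library 1 or AML3 vehicle library 2 (adjusted p = 0.0821 at most).

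Between the compounds, whose side chains end in a hydroxyphenyl amide (OTX015) and a tert-butyl ester (JQ1), no member passed the unpaired test in either line, where 0% of all genes passed. None of the 81 had an unadjusted p under 0.05, where 253 of all genes in AML3 (2.52%) and 331 in AML2 (3.30%) had one, and DESeq2 called none. With dose and time unstated, these values are of the libraries as labelled. The median log2 difference of OTX015 from JQ1 was -0.21 in AML3 and -0.08 in AML2, beside -0.0038 and 0 over all genes. In AML3, 74 of 81 members were below 0, beside 5070 of 10031 genes in all, and in AML2 54 members were, beside 4895 genes. For ATP5MC1 the difference was -0.57 ± 0.34 in AML3, with a 95% interval of -1.26 to 0.12, and -0.42 ± 0.28 in AML2, with an interval of -0.99 to 0.16. For NDUFS8 it was -0.38 ± 0.28 in AML3, with an interval of -0.96 to 0.21, and -0.44 ± 0.26 in AML2, with an interval of -0.98 to 0.10. For NDUFA6-DT it was 0.06 ± 0.46 in AML3, with an interval of -0.88 to 0.999, and 0.56 ± 0.49 in AML2, with an interval of -0.45 to 1.57. A further fit took the library number as a block, with the effect of a number shared by all 6 groups, vehicle and both lines included. It is therefore not a pairing of the compounds within a line. No such paired test was run, so these fits do not show what pairing would give. In that fit ATP5MC1 had -0.58 ± 0.30 in AML3, with an interval of -1.18 to 0.02. In AML2 ATP5MC1 had -0.43 ± 0.24, with an interval of -0.92 to 0.06. NDUFS8 then had -0.38 ± 0.26 in AML3, with an interval of -0.91 to 0.15, and -0.45 ± 0.24 in AML2, with an interval of -0.93 to 0.03. Both genes were lower with OTX015 in 3 of 3 same-numbered pairs in each line, and neither passed in the blocked fit (edgeR, adjusted p = 1), where 0 of 81 members had an unadjusted p under 0.05, beside 3.34% of all genes in AML3 and 4.49% in AML2.

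The change with drug was compared between AML3 and AML2 in an interaction test. With JQ1 no member differed, where 3.92% of all genes were lower and 3.02% higher in AML3, and 2 members had an unadjusted p under 0.05, where 20.7% of all genes had one. With OTX015, 3 members had an unadjusted p under 0.05, where 22.0% of all genes had one, and NDUFC2-KCTD14 differed, where 4.81% of all genes were lower and 2.84% higher. Its difference was -2.83 ± 0.89 (adjusted p = 0.0489), a fitted value that rests on 2 tags in OTX015-treated AML3. DESeq2 called no member in either interaction. The median difference was -0.22 with JQ1 and -0.40 with OTX015 over the members, beside 0.03 and 0.02 over all genes. NDUFC2-KCTD14 did not pass with DESeq2 size factors, with library size alone or with no filter, nor in 13 of the 18 fits that each left out 1 library (adjusted p = 0.261 at most).

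Other genes of the pathway were counted in lists of assembly factors, electron carriers and coenzyme Q synthesis, regulators, and the mitochondrially encoded subunits. Of 50 tested assembly factors, 19 fell with JQ1 and 24 with OTX015 in AML3, and 28 and 29 fell in AML2, with medians of -0.53, -0.65, -0.80 and -0.79. Of all genes, 24.1% and 26.1% fell in AML3 and 17.4% and 19.9% in AML2. SURF1, an assembly factor of complex IV, rose with JQ1 in AML2, by 0.82 ± 0.26 (adjusted p = 0.0139). NDUFAF2, an assembly factor of complex I, averaged 24.4 ± 7.08 CPM with JQ1 and 27.97 ± 7.45 CPM with OTX015 in AML3, against 69.7 ± 7.30 CPM with vehicle. In AML2 it averaged 20.6 ± 2.04 CPM with JQ1 and 18.1 ± 3.70 CPM with OTX015, against 140.4 ± 24.9 CPM with vehicle. It fell, at log2 fold changes of -1.46 ± 0.24 (adjusted p = 2.09e-05) and -1.26 ± 0.24 (adjusted p = 9.15e-05) in AML3 and -2.79 ± 0.24 (adjusted p = 3.20e-09) and -2.92 ± 0.24 (adjusted p = 1.91e-09) in AML2. COA6, a copper-handling factor of complex IV, fell, at log2 fold changes of -1.86 ± 0.30 (adjusted p = 1.89e-05) and -2.09 ± 0.31 (adjusted p = 4.80e-06) in AML3 and -1.89 ± 0.28 (adjusted p = 1.17e-05) and -1.98 ± 0.28 (adjusted p = 4.75e-06) in AML2. TMEM126B, a complex I assembly factor, fell, at log2 fold changes of -1.23 ± 0.27 (adjusted p = 5.82e-04) with JQ1 and -1.98 ± 0.30 (adjusted p = 6.91e-06) with OTX015 in AML3.

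Of the 17 carriers and coenzyme Q genes, 5 fell and 2 rose with JQ1 and 6 fell and 1 rose with OTX015 in AML3. There 24.1% and 26.1% of all genes fell and 26.8% and 28.8% rose. In AML2, 6 and 7 fell with none higher, where 17.4% and 19.9% of all genes fell and 17.2% and 20.5% rose. CYCS, which encodes cytochrome c, averaged 222 ± 99.7 CPM with JQ1 and 199 ± 71.9 CPM with OTX015 in AML3, against 456 ± 27.3 CPM with vehicle. It averaged 369.5 ± 13.6 CPM with JQ1 and 393 ± 75.03 CPM with OTX015 in AML2, against 978 ± 87.3 CPM with vehicle. It fell, at log2 fold changes of -1.02 ± 0.31 (adjusted p = 0.00798) and -1.18 ± 0.31 (adjusted p = 0.00257) in AML3 and -1.40 ± 0.31 (adjusted p = 9.79e-04) and -1.31 ± 0.31 (adjusted p = 0.00142) in AML2. PDSS1, which makes the tail of coenzyme Q, fell, at log2 fold changes of -2.07 ± 0.34 (adjusted p = 2.83e-05) and -1.96 ± 0.35 (adjusted p = 5.43e-05) in AML3, whereas its partner PDSS2 rose there by 1.24 ± 0.30 (adjusted p = 0.00139) and 1.28 ± 0.31 (adjusted p = 0.00102). COQ3, a methyltransferase of coenzyme Q synthesis, fell in AML2, at log2 fold changes of -3.33 ± 0.43 (adjusted p = 2.28e-06) with JQ1 and -4.32 ± 0.51 (adjusted p = 4.11e-07) with OTX015. ETFA, a flavoprotein that feeds electrons to coenzyme Q, fell, at log2 fold changes of -1.13 ± 0.22 (adjusted p = 1.66e-04) and -1.09 ± 0.22 (adjusted p = 2.06e-04) in AML3.

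Of 20 tested regulators of respiratory genes and mitochondrial DNA, 8 fell and 3 rose with JQ1 in AML3, and 7 fell and 3 rose with OTX015. There 24.1% and 26.1% of all genes fell and 26.8% and 28.8% rose. In AML2, 9 and 8 fell with none higher, where 17.4% and 19.9% of all genes fell and 17.2% and 20.5% rose. TFAM, which packages and transcribes mitochondrial DNA, fell, at log2 fold changes of -1.01 ± 0.27 (adjusted p = 0.00333) and -0.92 ± 0.27 (adjusted p = 0.00606) in AML3 and -1.01 ± 0.26 (adjusted p = 0.00383) and -1.03 ± 0.26 (adjusted p = 0.00271) in AML2. NRF1 averaged 30.3 ± 19.8 CPM with JQ1 and 21.4 ± 2.77 CPM with OTX015 in AML3, against 10.96 ± 2.15 CPM with vehicle, and rose by 1.32 ± 0.38 (adjusted p = 0.00536) and 0.94 ± 0.40 (adjusted p = 0.0498). In AML2 NRF1 had log2 fold changes of 0.33 ± 0.40 (adjusted p = 0.548) and 0.34 ± 0.40 (adjusted p = 0.537). GABPA, a GABP subunit, passed in none of the 4, at 14.3 ± 3.13 CPM with JQ1 and 13.1 ± 2.94 CPM with OTX015 in AML3, against 20.6 ± 5.48 CPM with vehicle. POLG, the polymerase of mitochondrial DNA, rose in AML3 by 1.29 ± 0.22 (adjusted p = 3.05e-05) with JQ1 and 1.12 ± 0.22 (adjusted p = 1.59e-04) with OTX015, as did its accessory subunit gene POLG2, by 1.42 ± 0.30 (adjusted p = 3.87e-04) and 1.42 ± 0.30 (adjusted p = 3.67e-04). TFB2M, a mitochondrial transcription factor, and TWNK, the mitochondrial helicase, fell in all 4. PPARGC1B was too low to be tested.

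The 13 subunit genes of mitochondrial DNA, transcribed by a separate polymerase, were tested in the same fit. Together they held few tags, on average 0.022% of gene tags in vehicle-treated AML2 and 0.0473% in JQ1-treated AML2. How far tags of capped 5′ ends follow the level of these RNAs was not tested, so rises and falls here are of tags alone. With JQ1 in AML3 none passed, where 24.1% of all genes fell and 26.8% rose. With OTX015 in AML3 1 fell, MT-ND6, where 26.1% of all genes fell. MT-ND6 vehicle libraries were spread widely (2.89 ± 1.22 CPM with OTX015, against 10.8 ± 10.6 CPM with vehicle). Its call was lost without vehicle library 1, OTX015 library 1 or OTX015 library 2 (adjusted p = 0.346 at most). In AML2, MT-ATP6, MT-CO2, MT-CYB and MT-ND3 rose with JQ1, where 17.2% of all genes rose. MT-ND3 also rose with OTX015 in AML2, where 20.5% of all genes rose. In each of these calls the libraries of the compound lay above all vehicle libraries. The summed level of the 13 genes did not separate the groups, at 447, 491 and 596 CPM with JQ1 and 513, 261 and 408 CPM with OTX015, against 193, 456 and 152 CPM with vehicle, where library 2 was highest. Without that vehicle library 9 of the 13 rose with JQ1 and 7 with OTX015, 2 rose with JQ1 without vehicle library 1, and 3 rose with OTX015 without OTX015 library 2. The MT-ATP6 call was lost without vehicle library 1, vehicle library 3, JQ1 library 1 or JQ1 library 3 (adjusted p = 0.182 at most), that of MT-CO2 without vehicle library 1 (adjusted p = 0.0614) and that of MT-ND3 with OTX015 without OTX015 library 3 (adjusted p = 0.0516). The medians were 0.01 with JQ1 and -0.21 with OTX015 in AML3, and 0.72 and 0.47 in AML2. MT-ND3 averaged 23.2 ± 2.22 CPM with JQ1 and 18.7 ± 2.07 CPM with OTX015 in AML2, against 9.18 ± 1.32 CPM with vehicle, rises of 1.31 ± 0.30 (adjusted p = 0.00126) and 0.96 ± 0.32 (adjusted p = 0.0172). MT-CYB averaged 56.4 ± 14.6 CPM with JQ1 in AML2, against 21.2 ± 13.6 CPM with vehicle, a rise of 1.25 ± 0.32 (adjusted p = 0.00382).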

How the data were processed

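Tags had been counted per gene symbol and per promoter in 18 CAGE libraries, and the deposited tables hold these as raw counts. Per the submitters' processing notes, STAR and hg38 were used, with no version or role given in the sources used here; promoter coordinates are labelled hg19 in the deposited table and printed as such. The members and lists were chosen with earlier results of these data known. Genes with enough tags by filterByExpr (10031 of 14079) were scaled by TMM and tested with edgeR 4.0.16 (R 4.3.3), a quasi-likelihood fit with 1 mean for each of the 6 groups and 12 residual degrees of freedom, adjusted over all genes by Benjamini-Hochberg; the procedure was tested on simulated data. DESeq2 1.42.0 and other scalings, filters and sets of libraries served as alternatives. Promoters were tied to genes where their counts summed exactly to the gene's in all libraries, and motifs were searched on both strands. Intervals on tag ratios were taken from tags summed over the 3 libraries of a group. They cover counting error only and leave out the spread between libraries. They also make no allowance for the lack of molecular identifiers on the tags.

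Named genes are the 5 largest falls and rises per drug comparison among members averaging at least 10 CPM, the 3 largest each way in the other comparisons, the most tagged member of each complex or arm, complex II, catalytic, c-subunit and isoform genes, non-subunit members and members against the majority; of each other list, up to 3 genes and CYCS, NRF1, GABPA, TFAM and PPARGC1B. NDUFA2, NDUFA6, NDUFA8, NDUFC2, NDUFV3, ATP5F1E, ATP5IF1, ATP5PF, UQCR11, UQCRB, POLG2, TFB2M and TWNK, and the start clusters, were named after their values were seen. Same-numbered libraries shared deviations in every pair between OTX015 and JQ1 (correlations 0.121 to 0.623) but not in every pair between drug and vehicle or between lines, so that the number was taken to pair the compounds alone. No test paired the compounds by number within a line. The blocked fit, in which the effect of a number was shared by all 6 groups, also called no member between the compounds.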

Additional observations from a re-analysis of the deposited data

Results flagged for a closer look

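NDUFC2-KCTD14 changed unequally with OTX015 in AML3 and AML2, with a log2 difference of -2.83 ± 0.89 between the lines (edgeR, adjusted p = 0.0489). It had 2 tags with OTX015 against 119 with vehicle in AML3, and 14 tags against 106 in AML2, and was lower in every drug library of both lines. The value was past the threshold in the fit over all groups and not with DESeq2, nor in 13 of the 18 fits that left out 1 library, where the log2 difference was -5.77 to -2.18 and the adjusted p 0.0206 to 0.261.

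The upstream start cluster of NDUFA2, at chr5:140027357-140027370 (hg19), also changed unequally with OTX015, with a log2 difference of -2.74 ± 0.81 between AML3 and AML2 (edgeR over all promoters, adjusted p = 0.0378). It fell in AML3, at a log2 fold change of -1.71 ± 0.71 (adjusted p = 0.0435) and rose in AML2 by 1.03 ± 0.39 (adjusted p = 0.0377), where the OTX015 libraries overlapped vehicle. All NDUFA2 clusters outside the main one together held 2.33 to 5.26% of its tags with OTX015 in AML3, against 6.20 to 8.02% with vehicle. Fits without single libraries were not run for start clusters.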

How the results depend on the processing

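Of the 2832 values, over 27 alternatives, of named members past the threshold, 2658 kept direction and call, 174 kept direction and missed the threshold, and 0 reversed. These results were chosen for passing in the same data, and many alternatives left out 1 library of a group not compared. The pooled counts therefore cannot show how stable a single call is. Among members, those higher with JQ1 in AML2, JQ1 in AML3 or OTX015 in AML2 numbered 0 when only the groups compared were fitted, in place of 1, since NDUFA6-DT then failed the filter. Members higher in AML3 numbered 2 with either compound under library size alone, from libraries 1 and 2 alone, and without both AML3 drug libraries numbered 3. Library size alone gave 37 lower with JQ1 in AML3, where 13.7% of all genes fell. Between the lines with vehicle, 2 members were higher under library size alone, 3 from libraries 1 and 2 alone, 4 with only the groups compared and 3 without both libraries numbered 3. Under the last 3, 38, 23 and 27 were lower, where 15.7%, 13.4% and 14.4% of all genes were. The replicate block gave 2 higher and 17 lower between the lines, where 14.1% of all genes were lower. It gave 52 and 71 lower with JQ1 and 55 and 73 with OTX015 in AML2 and AML3. Of all genes, 19.7% and 26.2% then fell with JQ1 and 22.1% and 28.2% with OTX015. The block changed no other count of calls by over 1.5 times, and 10 of 18 libraries correlated best with their own number. For the JQ1 difference between lines, 1 member was higher under library size alone and without both libraries numbered 3, and 2 higher and 1 lower from libraries 1 and 2. For the OTX015 difference 5 were lower from libraries 1 and 2, and 0 with DESeq2 size factors, library size, no filter, DESeq2 or without both libraries numbered 3. Leaving out 1 library at a time, 18 to 52 members fell with JQ1 in AML2, 37 to 67 with JQ1 in AML3 and 30 to 54 with OTX015 in AML2; 0 to 2 rose with JQ1 in AML3; 3 to 20 were lower and 0 to 3 higher between the lines; 0 to 1 were higher in the JQ1 and 0 to 1 lower in the OTX015 difference. Of the 27 tested promoters that alone matched a gene, 13 fell with JQ1 and 17 with OTX015 in AML2, 22 and 23 fell in AML3, and 1 rose in each, 5 were lower and 0 higher between lines, and 0 differed in the OTX015 change; these are fewer promoters by construction. Other causes were not tested. Falls were 39% of all calls between lines under library size alone, beside 50.6% with TMM. Few tags limit NDUFA6-DT, NDUFC2-KCTD14, NDUFC1 and the minor start clusters.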

Other observations

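Other genes than SDHB also drew a different share of their tags from outside the main start cluster with drug, among the 16 genes examined. NDUFV3, a complex I subunit gene that passed the gene test in no drug comparison, drew 23.7, 18.6 and 25% with JQ1 and 20.2, 18.4 and 18.9% with OTX015 in AML3, against 8.21, 10.8 and 8.70% with vehicle. Its main cluster fell with JQ1 in AML3, at a log2 fold change of -0.66 ± 0.21 (adjusted p = 0.00975), and its neighbouring cluster had log2 fold changes of 0.76 ± 0.35 (adjusted p = 0.0701). ATP5MG, the g subunit of ATP synthase, drew less from outside its main cluster in AML2, with 30.1, 25 and 26.6% with JQ1 and 31.2, 24.6 and 30.1% with OTX015, against 39.6, 53.2 and 44.2% with vehicle. The groups did not overlap in these comparisons, which alone sets the two-sided exact permutation p at 0.1, the smallest that 3 against 3 libraries allow. The shares of genes outside the members were not examined. In AML2 the NDUFV3 shares overlapped vehicle with both compounds. In AML3 the ATP5MG shares overlapped vehicle with JQ1 and lay below it with OTX015. These genes were chosen after their values were seen.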
